A study of Mus musculus with 15 samples.

Results

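The cells examined are those that the deposited table assigns to the class oligodendrocyte, 462 of its 5581 cells, chosen by that label alone. The class carried markers of oligodendrocyte precursor cells rather than of mature oligodendrocytes, and it is therefore called the class labelled oligodendrocyte. Oligodendrocyte precursor cells are the dividing glia that make new myelinating oligodendrocytes in the adult brain. They depend on platelet-derived growth factor acting through the receptor Pdgfra, receive synapses from neurons, and lose Pdgfra when they commit to differentiation, passing through a short-lived stage marked by Gpr17, Enpp6 and Bmp4 before myelin genes are switched on.

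The cells came from dissociated striatum, where cortical and dopaminergic inputs reach the basal ganglia, of 15 male C57BL/6J mice in 3 groups of 5. Haloperidol, a first-generation antipsychotic and dopamine receptor blocker, came from implanted pellets. Olanzapine, a second-generation antipsychotic that acts on serotonin as well as dopamine receptors, came in the food, and the third group received placebo. The labels give no engineered allele. The mice were bought at 8 weeks of age and were treated for 28 to 29 days. Because pellets and food were each tied to 1 drug, the effects of route and of drug cannot be told apart. Each mouse was 1 droplet library (10x Genomics 3' kit), and the values are counts of unique molecular identifiers (UMIs), that is, of tagged RNA molecules.

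Before any comparison, 1 feature of the libraries set which cells could be used. Of the 514 cells of placebo 5, 211 carried the same barcode as a cell of placebo 2 (101) or placebo 3 (110), and 210 of them were of the same class in both libraries. Their log counts correlated with a median of 0.70, against 0.39 in the 18 other pairs of cells with a shared barcode, of which 9 were of the same class. The copies in placebo 5 held a median of 0.318 times the UMIs of their partner. Among the 60 cells labelled oligodendrocyte in placebo 5, 29 were such copies, with a median of 1325 UMIs against 3306 in the others. That these cells belong to placebo 2 or 3 was inferred from their lower depth in placebo 5 and was not tested. The copies were left out of placebo 5, which left 5370 cells, 433 of them labelled oligodendrocyte, with 1456566 UMIs. Values with the copies kept are given beside the results that they moved.

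The class held 11, 9, 44, 29 and 22 cells in the haloperidol mice, 7, 9, 76, 15 and 49 in the olanzapine mice and 50, 9, 33, 39 and 31 in the placebo mice. A cell of the class had a median of 3326 UMIs, 1849 genes and 1.88% mitochondrial UMIs, and the summed class held 24832 to 286964 UMIs per mouse. Levels are CPM, the UMIs of a gene scaled to a common library total, over a mouse's summed cells. They are not scaled by transcript length. Means over mice use the 11 mice with at least 10 cells of the class, which leaves out haloperidol 2, olanzapine 1, olanzapine 2 and placebo 2.

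Promoters of 4 of the 5 given precursor markers, Pdgfra, Neu4, Lhfpl3 and Matn4, are printed because these genes were high together in the class. C1ql1 is named only. They are RefSeq sequences of GRCm38.p6, from 250 bases before to 50 bases after the annotated start, 5′ to 3′ on the strand of the gene. Capitals mark the E-box letters CAGCTG and CATCTG, a kind of site bound by basic helix-loop-helix factors such as Olig2.
Pdgfra (chr5:75152001-75152300, plus strand): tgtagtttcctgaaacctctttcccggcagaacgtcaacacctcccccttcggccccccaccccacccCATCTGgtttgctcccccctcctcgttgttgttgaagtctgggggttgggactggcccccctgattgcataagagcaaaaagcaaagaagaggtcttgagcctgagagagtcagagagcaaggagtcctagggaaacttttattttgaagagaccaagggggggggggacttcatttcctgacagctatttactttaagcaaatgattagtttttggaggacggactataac
Neu4 (chr1:94020243-94020542, plus strand): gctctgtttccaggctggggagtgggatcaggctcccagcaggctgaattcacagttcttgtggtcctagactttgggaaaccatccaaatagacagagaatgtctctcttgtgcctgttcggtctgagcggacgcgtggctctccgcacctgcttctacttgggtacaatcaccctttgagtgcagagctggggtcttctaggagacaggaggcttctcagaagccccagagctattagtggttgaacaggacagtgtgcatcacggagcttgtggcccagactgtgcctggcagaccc
Lhfpl3 (chr5:22745804-22746103, plus strand): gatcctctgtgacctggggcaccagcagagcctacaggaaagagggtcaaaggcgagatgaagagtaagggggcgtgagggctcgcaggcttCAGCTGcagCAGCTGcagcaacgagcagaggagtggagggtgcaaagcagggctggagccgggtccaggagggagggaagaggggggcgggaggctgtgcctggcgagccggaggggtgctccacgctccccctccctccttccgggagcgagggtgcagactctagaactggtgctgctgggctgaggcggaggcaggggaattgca
Matn4 (chr2:164404769-164405068, minus strand): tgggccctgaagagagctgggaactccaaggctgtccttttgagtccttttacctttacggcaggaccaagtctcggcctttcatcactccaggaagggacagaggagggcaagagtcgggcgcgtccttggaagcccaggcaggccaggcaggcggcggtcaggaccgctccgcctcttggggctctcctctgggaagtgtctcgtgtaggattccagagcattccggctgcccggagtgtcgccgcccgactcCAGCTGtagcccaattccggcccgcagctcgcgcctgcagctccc
The Pdgfra window held 1 CATCTG, the Lhfpl3 window 2 CAGCTG, the Matn4 window shown 1 CAGCTG and the Neu4 window neither. The window of a second Matn4 start, which is not printed, also held neither. On either strand, CAGCTG occurred in 16.3% and CATCTG in 17.2% of all 32851 promoters. For the 20 genes highest in the class, a set described below, 19 promoters of 15 genes were available. CAGCTG and CATCTG occurred in 4 and 2 of these 19, which is 21.1% and 10.5%. The SOX letters AACAAT occurred in 10.7% and AACAAAG in 5.85% of all promoters, against 1 and 0 of the 19. The 5 promoters of these 4 genes, with a second start of Matn4, held neither SOX word. With so few promoters these shares are a description only.

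All 5 given precursor markers were far higher in the class than in all other cells, in each of the 15 mice. Pdgfra, the receptor for platelet-derived growth factor (chromosome 5, 75152292 to 75198215, GRCm38), averaged 889 ± 160 CPM in the class and 7.77 ± 5.78 CPM in all other cells (SD, n = 11 mice). Neu4, a sialidase gene, averaged 703 ± 114 CPM in the class and 1.05 ± 1.53 CPM elsewhere. Matn4, which encodes a matrilin of the extracellular matrix, averaged 1055 ± 204 CPM in the class and 18.6 ± 5.61 CPM elsewhere. Over all 15 mice the lowest, median and highest levels in the class were 713, 921 and 1378 CPM for Pdgfra. They were 539, 716 and 1085 CPM for Neu4, and 686, 1109 and 1387 CPM for Matn4. For each of these 3 genes the highest mouse was about 2 times the lowest, and the lowest level in the class lay far above the highest level elsewhere, which was 28.0 CPM for Pdgfra, 4.76 CPM for Neu4 and 31.8 CPM for Matn4. Lhfpl3, a tetraspan membrane protein gene, averaged 684 ± 157 CPM in the class and 8.49 ± 3.27 CPM elsewhere, with 316, 685 and 1168 CPM as the lowest, median and highest level in the class. C1ql1, which encodes a secreted complement-related protein known at synapses, averaged 1061 ± 780 CPM in the class and 1.82 ± 2.35 CPM elsewhere, with a spread over mice several times that of the other markers. The mean log2 ratio of the 5 markers between the class and all other cells was 7.21 ± 0.50 (SD, n = 11). The authors made the class from the same cells and genes, so these ratios describe the class and were not tested.

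**Figure D1:**
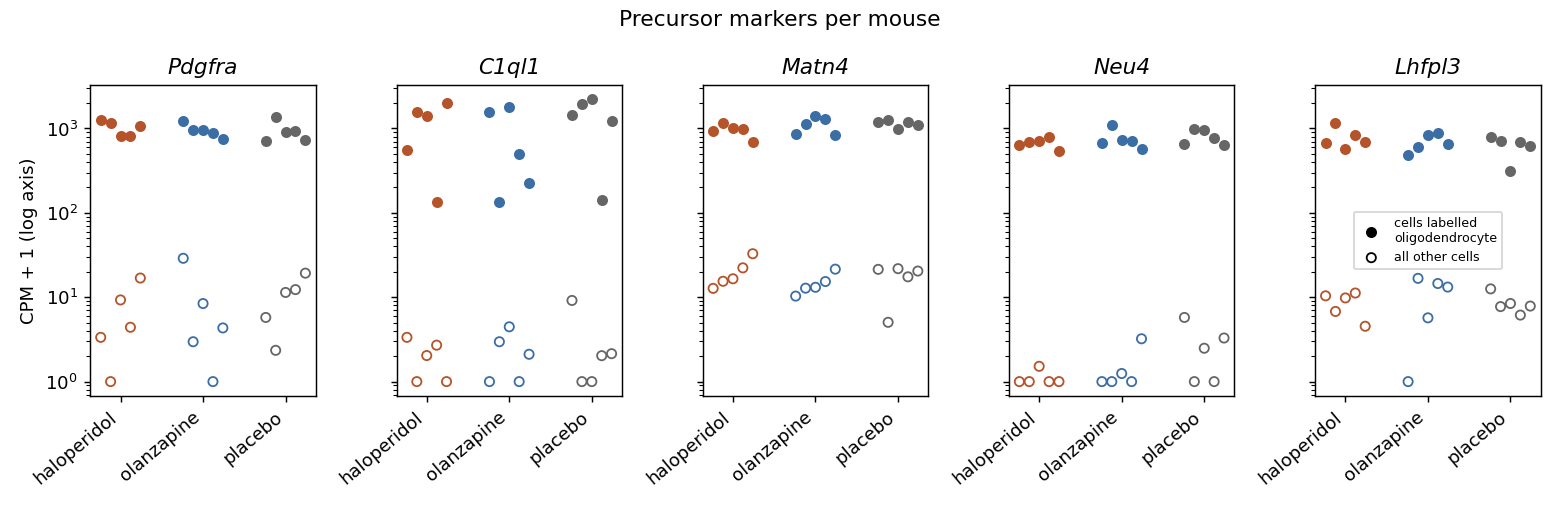
CPM + 1 (log axis) of the 5 given precursor markers in each mouse, filled points for the cells labelled oligodendrocyte and open points for all other cells, with haloperidol, olanzapine and placebo mice from left to right. In each panel the filled points lie above the open ones, and C1ql1 alone spreads over more than a factor of 10 in the class, from 132 to 2232 CPM.

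The markers were shared by nearly every cell of the class. At least 2 of the 5 were seen in 410 of the 433 cells (94.7%), against 11 of the 4937 other cells (0.223%). With each cell thinned to 1000 UMIs, which left out 38 shallower cells of the class, 95.9% of the class had at least 1 marker (98.8% unthinned), and in the other classes this share was 0.24% to 5.41%. The 5 cells of the class with none of the markers had a median of 1011 UMIs, against 3348 in the rest of the class. Traces elsewhere kept to particular genes. Pdgfra was seen in 5.41% of thinned cells of the class other, which also carried endothelial, mural and fibroblast markers, Matn4 in 4.54% of astrocytes and Lhfpl3 in 2.01% of neurons. In microglia, at a median of 3590 UMIs, each of the 5 was at or below 0.24%.

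The myelin genes of mature oligodendrocytes stood in the other lineage class. Mog, a myelin surface glycoprotein, was seen in 1.01% of thinned cells of the class labelled oligodendrocyte, against 87.7% of those labelled olig precursor. Mbp, the myelin basic protein gene, was seen in 9.62% of the class labelled oligodendrocyte and 98.9% of that labelled olig precursor. The summed level of the 13 myelin markers was 3019 CPM in the class labelled oligodendrocyte and 87650 CPM in the class labelled olig precursor, and 11 of the 13 were at least 2-fold lower in the class labelled oligodendrocyte than in all other cells together, where 31.0% of all 15932 genes were. Both labels thus went against their defining markers.

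The 20 genes with the largest ratio in favour of the class, among genes of at least 100 CPM there, held all 5 given markers and 13 genes that were on either precursor list. Beside the 5, they included Gpr17, an orphan receptor of cells committing to differentiation (626 ± 175 CPM in the class and 1.62 ± 2.11 CPM elsewhere), and Tnr, the matrix glycoprotein tenascin-R (734 ± 134 CPM in the class and 11.0 ± 7.15 CPM elsewhere). Cspg4, which encodes the NG2 proteoglycan that names these cells in histology, averaged 368 ± 110 CPM in the class and 9.16 ± 3.15 CPM elsewhere, and was seen in 28.6% of thinned cells of the class and 7.14% of those of the class other. The lineage factor Olig1 reached 4300 ± 457 CPM in the class and 112 ± 50.3 CPM elsewhere. Of the 20 further precursor markers, 19 were at least 2-fold higher in the class, where 7.20% of all genes were, and the other one, Gpr37l1, was at 1310 ± 417 CPM in the class and 728 ± 210 CPM elsewhere. The precursor lists were chosen with earlier results of these data known, so these counts are a description.

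Of 30 listed transcription factors, 13 were at least 2-fold higher in the class, 5 were at least 2-fold lower and the others were neither. Over all genes, 7.20% were higher and 31.0% lower by that much. Sox10, a driver of the oligodendrocyte fate, averaged 512 ± 76.9 CPM in the class and 23.0 ± 12.7 CPM in all other cells. Sox6, which holds precursors undifferentiated, averaged 268 ± 43.5 CPM in the class and 22.5 ± 5.59 CPM elsewhere. The lower ones were Sox9, Id1, Id3, Id4 and Nkx6-2. Sox9, a factor of astrocytes and of early glial progenitors, had a mean of 0.67 ± 2.22 CPM in the class and 94.2 ± 17.3 CPM elsewhere.

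Of 19 measured genes of the extracellular matrix, 13 were at least 2-fold higher in the class and 2 (Sparc and Lamb1) at least 2-fold lower. Over all genes these shares were 7.20% and 31.0%. The summed level of the matrix genes was 11810 CPM in the class. Astrocytes had the next highest sum, 7734 CPM, and the other classes had 363 to 3590 CPM. Cspg5, a neuroglycan, averaged 2750 ± 933 CPM in the class and 529 ± 139 CPM elsewhere, and Ptprz1, a receptor phosphatase, averaged 2061 ± 245 CPM in the class and 233 ± 37.0 CPM elsewhere. Vcan, which encodes versican, averaged 519 ± 70.0 CPM in the class and 19.1 ± 6.14 CPM elsewhere. Adhesion and guidance genes followed the same direction for 18 of 29, with 6 at least 2-fold lower. Sema3d, a secreted semaphorin, averaged 87.1 ± 25.7 CPM in the class and 1.23 ± 1.32 CPM elsewhere, and Opcml, a cell adhesion protein gene, averaged 796 ± 110 CPM in the class and 100 ± 51.7 CPM elsewhere.

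Receptors for neurotransmitters were mixed. Over all 15932 genes, 7.20% were at least 2-fold higher in the class and 31.0% at least 2-fold lower. Of 24 glutamate receptor genes, 9 were at least 2-fold higher in the class and 9 at least 2-fold lower. Among those higher was Cacng4, an auxiliary subunit of AMPA receptors, at 541 ± 151 CPM in the class and 23.6 ± 6.53 CPM elsewhere. Grik4, a kainate receptor subunit, averaged 59.2 ± 25.5 CPM in the class and 4.69 ± 4.42 CPM elsewhere. Among those lower was Grin2b, an NMDA receptor subunit, at 2.75 ± 4.94 CPM in the class and 258 ± 118 CPM elsewhere. Of 13 GABA receptor genes, 1 was at least 2-fold higher and 7 at least 2-fold lower. The lower count of glutamate receptor genes and the higher count of GABA receptor genes were near the shares of all genes. Of 25 ion channel genes, 5 were at least 2-fold higher and 7 at least 2-fold lower. Among the higher ones was the potassium channel gene Kcnj16, at 77.9 ± 34.6 CPM in the class and 5.95 ± 2.99 CPM elsewhere.

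Of 25 measured genes for receptors and other targets of antipsychotics, 16 were at least 2-fold lower in the class than in all other cells and 1 at least 2-fold higher. Over all genes these shares were 31.0% and 7.20%. The summed level of the 25 was 209 CPM in the class, against 981 CPM in neurons and 125 to 177 CPM in the remaining classes. Of the 25, 11 had no UMI in the class, including Drd2, the dopamine receptor that both drugs block, and Htr2a, the serotonin receptor blocked by olanzapine. A count of 0 in the 1456566 UMIs of the class allows up to 2.06 CPM, for counting error only. In all other cells Drd2 averaged 30.7 ± 13.2 CPM. Hrh1, the histamine receptor that olanzapine blocks, was at 21.4 ± 9.16 CPM in the class and 6.50 ± 2.77 CPM elsewhere.

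Of 17 cell cycle genes, 16 were at least 2-fold lower in the class than in all other cells, where the neuroblasts carried most of the signal. Over all genes, 31.0% were at least 2-fold lower. The summed level of the list was 155 CPM in the class, against 4945 CPM in neuroblasts and 43.8 to 140 CPM in the remaining classes. At least 3 of the 15 cycle genes used for counting were seen in 2 of the 433 cells of the class, against 121 of the 684 neuroblasts, whose median depth was 2556 UMIs against 3326 in the class. The count was 5 of 1583 in astrocytes and 0 in each of the other 4 classes. Defining markers of other cell types were nearly absent from the class. P2ry12 of microglia had 2 UMIs in all, Gja1 of astrocytes 2, Cldn5 of endothelium 5, and Dlx1 of neuroblasts 0. Markers that precursors share with other cells were present, with Meg3 at 1142 CPM and Aldoc at 286 CPM in the cells outside the committed-like group described below.

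A small group within the class lacked Pdgfra. Clustering the class on its own set apart 29 cells (6.70% of 433), called committed-like from their markers, and the same 29 cells were found at both resolutions tried. Pdgfra had 0 UMIs in them, against 1291 in the 404 other cells, which is at least 34.9-fold lower in the committed-like cells. Enpp6, a choline phosphodiesterase gene known to mark newly forming oligodendrocytes, had 132 UMIs in the committed-like cells and 0 in the others, which is at least 543-fold higher. Both bounds rest on the level that 3 counts over the group would give. Gpr17 stood at 2217 CPM in the committed-like cells and 454 CPM in the others, and Bmp4, a secreted signalling factor, at 769 CPM in the committed-like cells and 24.5 CPM in the others. The clusters were made from the same genes, so these values are a description and were not tested.

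Of the 13 committed-oligodendrocyte markers with at least 30 UMIs, 12 were at least 2-fold higher in the committed-like cells and 0 lower, and of 6 myelin genes all 6 were higher. Of all 7378 genes with that many UMIs, 7.46% were at least 2-fold higher and 28.6% at least 2-fold lower. The committed-like cluster was picked as the one with the highest summed level of the committed-oligodendrocyte list. The count for that list therefore describes the choice and is no separate evidence. Mbp stood at 4167 CPM in the committed-like cells and 61.6 CPM in the others. Cldn11, the tight junction protein of myelin, stood at 2226 CPM in the committed-like cells and 4.45 CPM in the others. Myrf, the factor that switches on myelin genes, stood at 302 CPM in the committed-like cells and 22.3 CPM in the others. Myelin genes were thus far higher in these few cells than in the rest of the class. Fyn, a kinase that acts early in myelination, stood at 2757 CPM in the committed-like cells and 129 CPM in the others. Precursor genes ran the other way for 14 of 20 further markers, with Cspg5 at 18.3 CPM in the committed-like cells and 3110 CPM in the others. Neu4 did not follow the other precursor markers, with 733 CPM in the committed-like cells and 727 CPM in the others, and Vcan had 531 CPM in the committed-like cells and 534 CPM in the others. Among regulators, Hes5, a target of Notch signalling, had 0 UMIs in the committed-like cells, against 680 UMIs in the others. Genes that report growth factor signalling were lower for 10 of 14, with Ccnd1, a cyclin of cell cycle entry, at 0 UMIs in the committed-like cells against 732 in the others. Immediate-early genes were lower for 13 of 15, with Fos at 110 CPM in the committed-like cells and 2560 CPM in the others. Depth per cell was similar, with a median of 3157 UMIs in the committed-like cells, and 1 of the 29 was called a doublet.

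**Figure D2:**
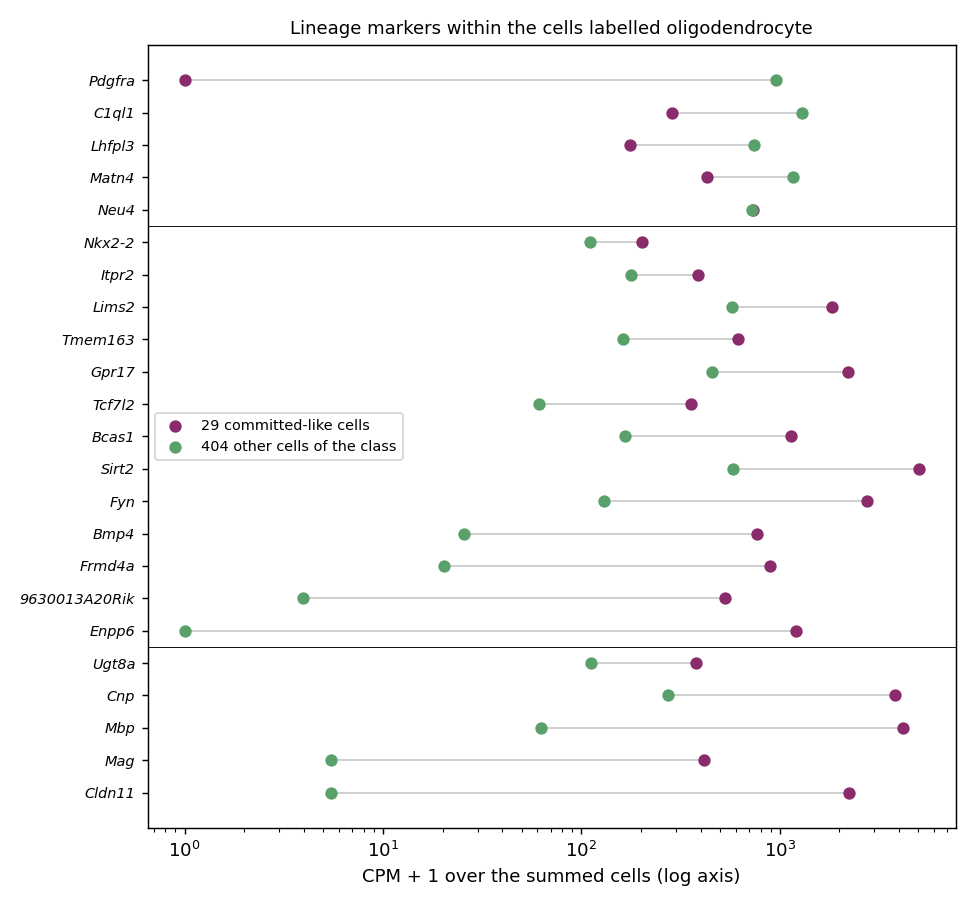
CPM + 1 over the summed cells (log axis) of the given precursor markers (top block), committed-oligodendrocyte markers (middle) and 5 myelin genes (bottom), each with at least 30 UMIs in the class, purple for the 29 committed-like cells and green for the 404 other cells of the class. Pdgfra is at 0 CPM in the committed-like cells and Enpp6 at 0 CPM in the others, and Neu4 has nearly the same level in both, 733 and 727 CPM.

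Cells rich in Gpr17 mostly lacked Pdgfra UMIs. Of the 29 cells with at least 6 Gpr17 UMIs, 24 had no Pdgfra UMI and 20 were committed-like. Of the 83 cells with 3 to 5 Gpr17 UMIs, 4 had no Pdgfra UMI. Cells without a Pdgfra UMI were also found at low Gpr17, with 26 of 144 cells at 0 Gpr17 UMIs, 19 of 102 at 1 and 8 of 75 at 2. These counts were not thinned to a common depth, and the part of depth in them was not tested. Of the committed-like cells, 1, 6 and 1 had 0, 1 and 2 Gpr17 UMIs, in that order. The committed-like cells numbered 0, 0, 5, 2 and 1 in the haloperidol mice, 1, 1, 3, 1 and 1 in the olanzapine mice and 6, 0, 2, 3 and 3 in the placebo mice. Pooled over mice they were 8 of 115 cells of the class with haloperidol (6.96%, exact 95% interval 3.05 to 13.2%), 7 of 156 with olanzapine (4.49%, 1.82 to 9.03%) and 14 of 162 with placebo (8.64%, 4.80 to 14.1%). The intervals treat cells as independent, cover counting error only and hold no spread between mice, so they cannot compare the drugs. Haloperidol 3 gave 5 of the 8 cells with haloperidol, and placebo 1 gave 6 of the 14 with placebo. No test was run on these few cells.

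The remaining cells fell into groups without lineage markers of their own. Group 1, with 174 cells, was led by Socs3, Dusp1, Ier2, Fos and Junb, genes switched on within minutes of a stimulus. Fos stood at 4107 CPM in that group and 661 CPM in the rest of the class. Group 2, with 145 cells, had a median of 1525 UMIs, against 4024 in group 1 and 4190 in group 3, which held 85 cells led by Nrarp, Npy and Pou3f1. Groups 1 and 2 thus differed in depth as well as in genes, and the part of depth in their separation was not tested.

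C1ql1 varied between libraries more than any other given marker. In the class it had 558, 1571, 1418, 134 and 2008 CPM in the haloperidol mice, 1553, 132, 1805, 503 and 225 CPM in the olanzapine mice and 1431, 1952, 2232, 140 and 1217 CPM in the placebo mice. Each drug group held both high and low mice, and the groups overlapped. Pdgfra had 1249, 1168, 820, 807 and 1061 CPM in the haloperidol mice, 1221, 953, 948, 887 and 745 CPM in the olanzapine mice and 713, 1378, 906, 921 and 723 CPM in the placebo mice, with no such split. The 6 mice with the lowest C1ql1 were haloperidol 1, haloperidol 4, olanzapine 2, olanzapine 4, olanzapine 5 and placebo 4. The same 6 had the lowest mean log2 level of Lamp1, Ptov1, Jund, Sfpq and Gnas, broadly expressed genes, in all other cells of the mouse. Lamp1 in those other cells stood at 286, 767, 647, 133 and 664 CPM in the haloperidol mice, 680, 181, 837, 509 and 215 CPM in the olanzapine mice and 903, 623, 753, 139 and 622 CPM in the placebo mice. These 5 genes were chosen after their values were seen, so the match is a description. Olig2 in the class had a range of 159 to 1522 CPM over mice, and its lowest values included olanzapine 1, at 185 CPM, which is not among the 6. The labels name no batch, and the source of this library pattern was not tested.

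**Figure D3:**
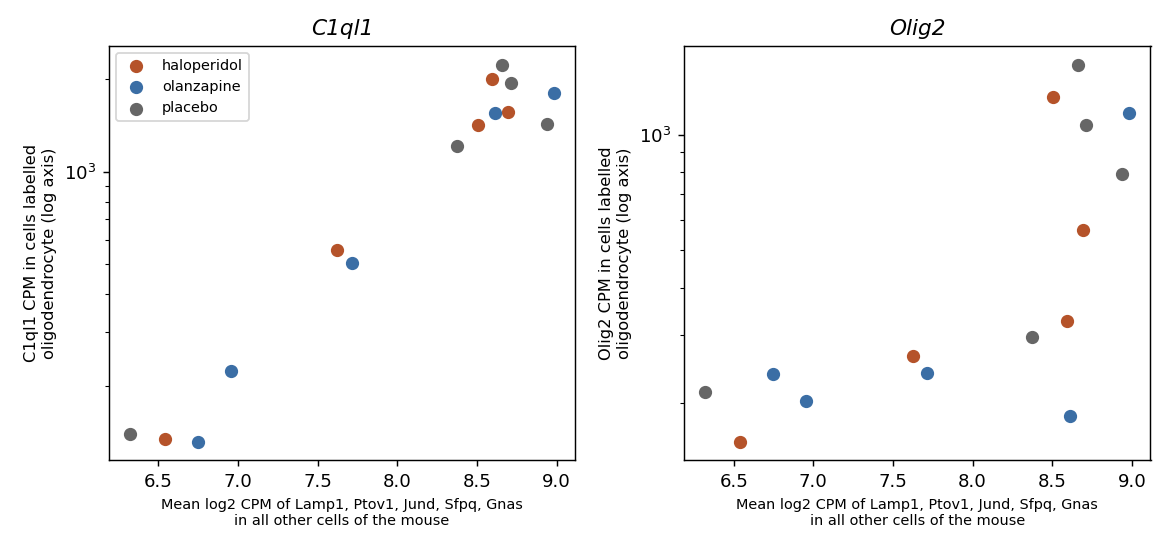
C1ql1 (left) and Olig2 (right) CPM in the cells labelled oligodendrocyte (log axis) of each mouse, against the mean log2 CPM of Lamp1, Ptov1, Jund, Sfpq and Gnas in all other cells of the same mouse, coloured by drug. The 6 mice below 8 on the x axis have 132 to 558 CPM of C1ql1 and come from all 3 groups.

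The design asks whether either drug moved the number of these cells. The class made up 8.73, 9.68, 6.98, 7.16 and 9.73% of cells in the haloperidol mice, 8.75, 7.03, 6.39, 4.00 and 8.42% in the olanzapine mice, and 11.1, 5.42, 12.1, 11.3 and 10.2% in the placebo mice. All haloperidol and olanzapine mice lay below 4 of the 5 placebo mice, and placebo 2 lay below all but 1 of the drug-treated mice. The mean share was 8.46 ± 1.33% with haloperidol and 10.0 ± 2.67% with placebo (SD, n = 5 each), a difference of -1.58 percentage points (exact two-sided permutation p = 0.270, adjusted p = 0.270). With olanzapine it was 6.92 ± 1.90%, a difference from placebo of -3.12 points (exact permutation p = 0.0714, adjusted p = 0.214). Haloperidol minus olanzapine was 1.54 points (exact permutation p = 0.183, adjusted p = 0.270). Adjustment was by Benjamini-Hochberg over the 3 comparisons, and the smallest p that 5 against 5 mice can give is 0.00794. Without placebo 2 the differences from placebo were -2.74 points for haloperidol and -4.28 points for olanzapine, each with an exact permutation p of 0.0159, the smallest that 5 against 4 mice can give, and an adjusted p of 0.0238. So 1 mouse with 9 cells of the class decided whether the shares passed the threshold. Fewer cells of this class and more of the other classes cannot be told apart in a share.

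**Figure D4:**
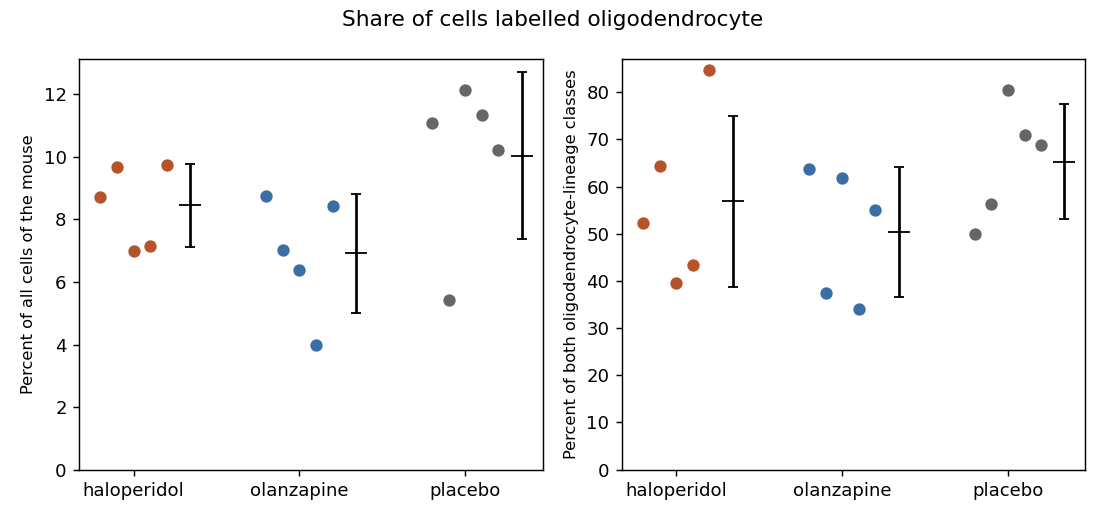
Percent of all cells of a mouse that carry the label oligodendrocyte (left), and percent of the cells of both oligodendrocyte-lineage classes (right), 1 point a mouse, with bars for mean ± SD over 5 mice. In the left panel 4 placebo mice (10.2 to 12.1%) lie above all 10 drug-treated mice and placebo 2 is at 5.42%, and in the right panel the 3 groups overlap.

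Within the oligodendrocyte lineage the class made up 56.8 ± 18.2% of cells in haloperidol mice, 50.4 ± 13.8% in olanzapine mice and 65.3 ± 12.2% in placebo mice (SD, 5 mice a group), where the denominator is the class plus the cells labelled olig precursor. The difference from placebo was -8.47 points with haloperidol (exact permutation adjusted p = 0.540) and -14.9 points with olanzapine (adjusted p = 0.333), and haloperidol minus olanzapine was 6.43 points (adjusted p = 0.540). The last difference rested on haloperidol 5, at 84.6%, and was -0.52 points without that mouse.

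No gene of the class passed the test between any pair of groups. Counts were summed per mouse and 3144 genes were tested in 4 haloperidol, 3 olanzapine and 4 placebo mice with edgeR's quasi-likelihood test and Benjamini-Hochberg adjustment. At an adjusted p under 0.05, edgeR called 0 genes (0% of those tested) for haloperidol against placebo, 0 (0%) for olanzapine against placebo and 0 (0%) for haloperidol against olanzapine. At an unadjusted p under 0.05 there were 102 (3.24%), 69 (2.19%) and 118 (3.75%). DESeq2 called 0 as well, with 39, 26 and 51 genes at an unadjusted p under 0.05. The median standard error of a log2 fold change was 0.339, 0.330 and 0.363, in the same order, which sets the size of change that 3 or 4 mice a group could resolve.

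None of the given markers passed the test between groups. Pdgfra averaged 984 ± 212 CPM with haloperidol (SD, n = 4), 860 ± 104 CPM with olanzapine (n = 3) and 816 ± 113 CPM with placebo (n = 4). Its log2 fold change against placebo was 0.26 ± 0.20 (SE) with haloperidol and 0.10 ± 0.21 with olanzapine. Matn4 had -0.29 ± 0.20 with haloperidol and 0.09 ± 0.21 with olanzapine. Neu4 had -0.13 ± 0.20 with haloperidol and -0.15 ± 0.21 with olanzapine. Lhfpl3 had 0.20 ± 0.22 with haloperidol and 0.39 ± 0.23 with olanzapine. The edgeR adjusted p of each was 0.999 or 1.00. C1ql1 had -0.24 ± 0.98 with haloperidol and -0.42 ± 1.04 with olanzapine, against 0.13 ± 0.22 and -0.27 ± 0.24 when the library level of the 5 genes above was a covariate, an alternative chosen after seeing the data.

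Since none was called, the genes of smallest p and those of the lists are given as values. With haloperidol, Creld1, a gene for a membrane protein with EGF-like domains, had 79.7, 132, 122 and 114 CPM in the haloperidol mice of the fit, against 25.5, 42.8, 29.5 and 39.6 CPM in the placebo mice. The groups did not overlap, and the log2 fold change was 1.82 ± 0.47 (SE), with an adjusted p of 0.999 from edgeR. Groups of mice did not overlap for 2.26% of all genes in this comparison. Tmem30a, a subunit of phospholipid flippases, had 133, 146, 134 and 32.7 CPM in the haloperidol mice and 250, 205, 302 and 238 CPM in the placebo mice, with a log2 fold change of -1.07 ± 0.30. Sulf2, an enzyme that trims heparan sulphate, had 691, 424, 415 and 457 CPM in the haloperidol mice and 341, 265, 324 and 346 CPM in the placebo mice, with a log2 fold change of 0.59 ± 0.22. The groups did not overlap for Tmem30a or Sulf2, and the edgeR adjusted p of both was 0.999. Sulf2 is given as a member of the matrix list and is not among the 10 genes of smallest p. Besides Creld1 and Tmem30a, those were Tspan13, Map7d2, Hsp90aa1 and Emc2 with lower values with haloperidol, and Ankrd46, Pcbp4, Dag1 and Tmcc3 with higher values.

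With olanzapine, the gene of smallest p was 2810004N23Rik, with 31.4, 23.96 and 62.1 CPM in the olanzapine mice of the fit, against 96.8, 137, 110 and 119 CPM in the placebo mice, a log2 fold change of -1.46 ± 0.41 (SE). Of the 10 genes of smallest p, 6 had lower values with olanzapine, which were this gene, Gnb1, Gtf3c6, Dpysl2, Prune2 and Fundc1, and 4 had higher values, which were Tshz2, Dbp, Dll1 and Prkcsh. Dll1, a Notch ligand, had 76.7, 95.9 and 93.2 CPM in the olanzapine mice of the fit, against 30.6, 17.1, 36.8 and 29.7 CPM in the placebo mice, a log2 fold change of 1.54 ± 0.53 (SE), with an adjusted p of 1.00 from edgeR. Tshz2, a zinc finger factor, had 115, 95.9 and 124 CPM in the olanzapine mice and 50.9, 34.2, 66.3 and 39.6 CPM in the placebo mice, a log2 fold change of 1.25 ± 0.38. All 3 genes kept the groups apart, and the same held for 4.33% of all genes in this comparison. Dbp, an output gene of the circadian clock, had 136, 240 and 155 CPM in the olanzapine mice and 112, 94.0, 44.2 and 59.4 CPM in the placebo mice, a log2 fold change of 0.99 ± 0.34. Gnb1, a G protein subunit, had 115, 120 and 210 CPM in the olanzapine mice and 326, 291, 192 and 366 CPM in the placebo mice, a log2 fold change of -0.96 ± 0.28, and its groups overlapped. Between the drugs the smallest adjusted p was that of Pcbp4, an RNA-binding protein gene, at 276 ± 77.2 CPM with haloperidol (SD, n = 4) and 110 ± 19.5 CPM with olanzapine (n = 3), a log2 fold change of 1.25 ± 0.31 (SE), with an adjusted p of 0.785 from edgeR. Groups did not overlap for this gene, and the same held for 3.98% of all genes.

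Among the gene lists, the heat shock genes, chaperones that refold proteins under stress, had values below 0 throughout with haloperidol. Of 9 tested, 0 were called, and all 9 had a log2 fold change below 0 against placebo, where 49% of all genes did, with a median of -0.43 against 0.01 for all genes. Hsp90aa1, an abundant chaperone, had 718, 521, 428 and 392 CPM in the haloperidol mice and 795, 658, 833 and 762 CPM in the placebo mice, a log2 fold change of -0.58 ± 0.21 (SE), with an adjusted p of 0.999 from edgeR. The groups overlapped through haloperidol 1. Hspa8, which uncoats clathrin vesicles, had -0.58 ± 0.33. The summed level of the list was 4093, 3372, 3580 and 2792 CPM in the haloperidol mice and 5053, 3668, 5490 and 4494 CPM in the placebo mice, and these overlapped. In all other cells of the same mice the sums were 3763, 2932, 3313 and 2544 CPM with haloperidol and 4288, 2834, 3482 and 3588 CPM with placebo. With olanzapine, 3 of the 9 were below 0, where 49.3% of all genes were, with a median of 0.05. The median with haloperidol stayed between -0.57 and -0.25 under the alternatives, and without haloperidol 5 it was -0.36 with 8 of 9 below 0. Of 13 tested genes of the unfolded protein response, the stress response of the endoplasmic reticulum, 11 were below 0 with haloperidol, with a median of -0.21, and 4 of 13 with olanzapine, with a median of 0.12. Between the drugs, 8 of the 9 heat shock genes and all 13 genes of the unfolded protein response were below 0 for haloperidol against olanzapine, where 49.2% of all genes were, with medians of -0.44 and -0.32.

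**Figure D5:**
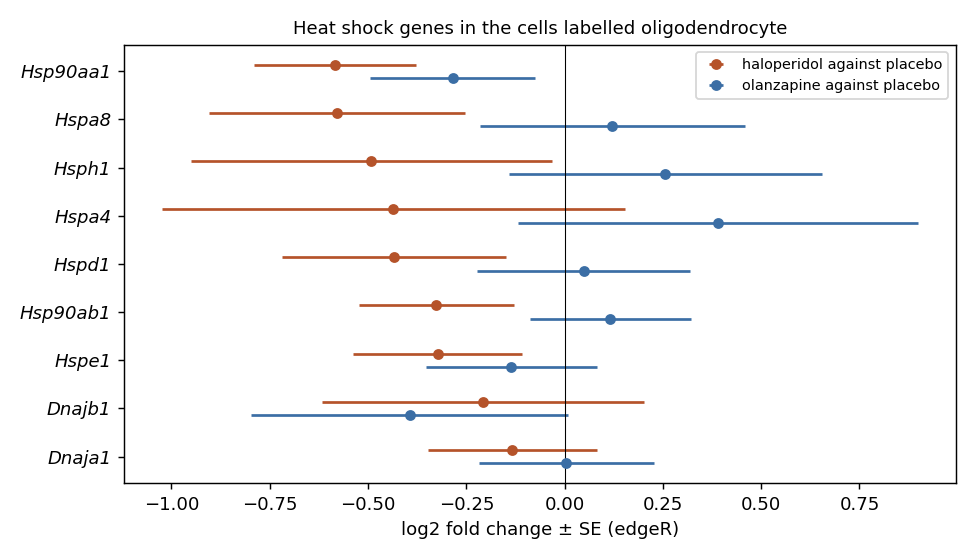
Log2 fold change ± SE (edgeR) of the 9 tested heat shock genes in the cells labelled oligodendrocyte, haloperidol against placebo in orange and olanzapine against placebo in blue. All 9 orange points lie left of 0, from -0.58 to -0.13, 6 of the 9 blue points lie right of it, and both comparisons share the same 4 placebo mice.

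The 12 tested mitochondrially encoded genes were all above 0 with haloperidol, where 51% of all genes were, with a median of 0.20, and 7 of 12 with olanzapine. For haloperidol against olanzapine all 12 were above 0, where 50.8% of all genes were, with a median of 0.18. The summed level of the list in the class was 18630 to 28230 CPM in the haloperidol mice of the fit. In the placebo mice of the fit it was 17500 to 27480 CPM, and the groups overlapped. In all other cells of these mice the sums were 53630, 35870, 43880 and 34210 CPM with haloperidol. With placebo they were 33640, 26370, 34910 and 36360 CPM. Of 79 ribosomal protein genes, 59 were above 0 with haloperidol (median 0.09) and 38 with olanzapine (median -0.00), but with the copied cells of placebo 5 kept 33 and 15 were, with medians of -0.02 and -0.13. The committed-oligodendrocyte list had 10 of 11 below 0 with olanzapine (median -0.37) and 7 of 11 with haloperidol (median -0.14). With the 29 committed-like cells left out, it had 5 of 8 below 0 with olanzapine, with a median of -0.04. The myelin list had 4 of 5 below 0 with olanzapine (median -0.39) and 1 of 5 with haloperidol (median 0.28). Without the 1 called doublet the olanzapine median was -1.14, without the committed-like cells it was -0.23, and the haloperidol median ran from -1.06 to 0.66 over the alternatives. Immediate-early genes had 8 of 11 below 0 with olanzapine (median -0.36) and 7 of 11 with haloperidol (median -0.18), and the 7 ion channel genes were all above 0 with olanzapine (median 0.47) and 5 of 7 with haloperidol (median 0.08). The summed level of neuron markers in the class was 1763, 1917 and 1902 CPM in the olanzapine mice of the fit, against 1319, 1436, 1621 and 1623 CPM in the placebo mice, and these did not overlap. In the haloperidol mice of the fit it was 1754, 1530, 1955 and 1877 CPM, which overlapped with placebo. The part of neuron transcripts in the ion channel values was not tested. No member of any of these lists was called.

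The last question was whether a drug acted differently on this class and on all other cells of the same mice, tested as an interaction over 8671 genes with the mouse as a block. For haloperidol edgeR called 0 genes (0%; 409 or 4.72% at an unadjusted p under 0.05, smallest adjusted p 0.153 for Tmem30a). For olanzapine it called 3 (0.0346%, with 253 or 2.92% at an unadjusted p under 0.05), which were Hbb-bs, 9630013A20Rik and Mttp. Without called doublets and cells over 20% mitochondrial, removed together from all classes, it called 0. Hbb-bs, a globin gene, had 9820 UMIs in the other cells of olanzapine 3 and at most 56 in those of any other mouse. The log2 difference for Tmem30a with haloperidol, the drug effect in the class minus that in all other cells, was -1.44 ± 0.34 (SE).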

How the data were processed

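Single-cell RNA-seq counts of unique molecular identifiers from 15 striatal libraries, 1 per mouse, were used as the authors deposited them in 1 table of whole-number counts with cell class, mouse and drug. Per the submitters' processing notes the authors used Cell Ranger, Seurat and the mm10 build. Tool versions were not given in the sources used here. Deposited cells hold at least 501 genes. Cells of placebo 5 that shared a barcode with placebo 2 or 3 were taken as copies and left out, a choice made after seeing the data. The members and gene lists were chosen with earlier results of these data known.

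Counts of the class were summed per mouse (at least 10 cells) and fitted in 1 model for the 3 groups by edgeR's robust quasi-likelihood F test (version 4.0.16, R 4.3.3, TMM scaling, filterByExpr, Benjamini-Hochberg over all genes tested, threshold 0.05). The interaction fit used the class and all other cells of each mouse. For shares, mice were permuted exactly, two-sided, over all 15 mice with scipy 1.17.1. Cells were clustered within the class with scanpy 1.11.5 (1500 variable genes, 10 components, 15 neighbours, leidenalg 0.10.2, resolutions 0.4 and 0.8). Doublets were called per mouse with Scrublet, which marked 35 cells, 1 of them in the class, and these were kept except in an alternative. Detection was compared after thinning cells to 1000 UMIs. Intervals are exact binomial at 95% and floors use 3 counts, both for counting error only.

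Named genes are the given markers, the 20 of largest class ratio at 100 CPM or more, list members, and per drug comparison called genes or else the 10 of smallest p at a mean log2 CPM of at least 5, with up to 4 members per list, those of smallest p. Gene positions come from GENCODE M21. The fits were tested on simulated data. Alternatives were DESeq2 1.42.0, RLE scaling, no count filter, other cell minimums, no doublets or cells over 20% mitochondrial, other denominators, each mouse left out, the mice numbered 1 to 4 left out, copied cells kept, no committed-like cells and the library level as covariate. The last 3 were chosen after seeing the data. Each mouse is a separate animal, and no batch is labelled. Some list members are not reported here.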

Additional observations from a re-analysis of the deposited data

Results flagged for a closer look

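The share of the class in placebo 2 was far from the other placebo mice. It was 5.42%, and the other 4 placebo mice had 10.2 to 12.1%. Of 24 groups of mice checked this way 1 stood out, and chance alone marks about 1 in 20. Placebo 2 shared 101 barcodes with placebo 5, and placebo 3, which had the highest share at 12.1%, shared 110.

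For 3 genes, the effect of olanzapine against placebo differed between the class and all other cells by the interaction test (edgeR, Benjamini-Hochberg adjusted). Hbb-bs, a beta-globin gene of red blood cells, had a log2 difference of -5.38 ± 0.65 (SE, adjusted p = 4.91e-10). It had 20 UMIs in the class and 9820 in all other cells of olanzapine 3, against 0 to 8 and 0 to 56 in the other 14 mice. 9630013A20Rik, annotated as an antisense RNA and high in the committed-like cells, had 6.72 ± 1.33 (SE, adjusted p = 0.00601). Its UMIs in the class were 22 in olanzapine 5, 2 in olanzapine 3 and 2 in olanzapine 4, against 8, 1, 0 and 0 in the 4 placebo mice of the fit, and its 22 UMIs outside the class in the placebo group all came from placebo 1. Over the class it had 58 UMIs in the 29 committed-like cells and 4 in the 404 other cells. Olanzapine 5 held 1 committed-like cell. The gene was not called without the committed-like cells, without olanzapine 5, without placebo 1, or without called doublets and cells over 20% mitochondrial. Mttp, a lipid transfer protein gene, had -4.41 ± 0.99 (SE, adjusted p = 0.0450), with 1, 0 and 0 UMIs in the class of the olanzapine mice and 9, 8, 4 and 2 in the placebo mice of the fit. In all other cells Mttp had 144, 51 and 131 UMIs in those olanzapine mice and 66, 27, 34 and 24 in those placebo mice. The log2 differences of 9630013A20Rik and Mttp rest on groups near 0 counts and are not bounds.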

How the results depend on the processing

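Each of the 3 drug comparisons had 0 genes called under every alternative run. Of the alternative values of the main results, 186 were scored the same and 9 counts moved by over 1.5 times. Another 2 values newly passed the threshold and 1 changed sign. For a count of genes, the same means equal or within 1.5 times, whichever genes were called. For a share it means the same sign and side of the threshold, and for the marker ratio a change within its SD. Without olanzapine 3, the olanzapine interaction called 3 genes, of which 1, 9630013A20Rik, was among the 3 reported. The share of the class differed from placebo by -2.74 to -1.06 points with haloperidol and -4.28 to -2.39 points with olanzapine when 1 mouse was left out, and passed the threshold in both only without placebo 2. The lineage share of haloperidol minus olanzapine was -0.52 to 10.7 points. The olanzapine interaction, with 3 genes, gave 5 with no filter on low counts, 6 with at least 20 cells per mouse, 0 without called doublets and cells over 20% mitochondrial (left out together), 1 without the committed-like cells and 1 to 5 with 1 mouse left out. The haloperidol interaction gave 1 gene with no filter and 0 to 4 with 1 mouse left out. The marker ratio was 7.12 to 7.28.

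Fold changes near 0 turned sign. Neu4 between the drugs was -0.0557 with no filter, -0.127 with at least 5 cells per mouse, -0.00536 without doublets and -0.0101 without the committed-like cells. With at least 5 cells, Matn4 was -0.00196 (olanzapine against placebo) and Lhfpl3 0.0833 (haloperidol against olanzapine). C1ql1 with haloperidol against placebo was 0.13 with the library level as covariate. With 1 mouse left out, C1ql1 was -0.73 to 0.17 (haloperidol against placebo), -1.97 to 0.0505 (olanzapine against placebo) and -0.30 to 1.72 (between the drugs). Neu4 between the drugs was -0.11 to 0.14, Lhfpl3 with haloperidol -0.0147 to 0.36, and Pdgfra and Matn4 with olanzapine -0.0487 to 0.21 and -0.14 to 0.29. The cause of these changes was not tested. No paired analysis was possible because the labels number the mice 1 to 15 across the groups and share no number. Depth limited the tests to 3144 of 15932 genes.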
